A study of Mus musculus with 12 samples.

Results

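A set of 10 genes of hepatic stellate cells and of the extracellular matrix were followed in mouse liver. They were taken by name, and all 10 are among the 24062 genes of the count tables: the fibrillar collagen genes Col1a1, Col1a2 and Col3a1, the proteoglycan gene Dcn, the stellate cell genes Lrat, Des and Reln, the smooth muscle actin gene Acta2, and Timp1 and Lox, which act on matrix turnover and cross-linking. Of the 10, 8 passed the filter on low counts and were tested among 12481 genes, and Timp1 and Lox did not.

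Hepatic stellate cells lie between hepatocytes and the endothelium of the sinusoids. At rest they store vitamin A as retinyl esters in lipid droplets, and Lrat encodes the enzyme that makes these esters. After liver injury they lose their vitamin A, take on features of contractile myofibroblasts and deposit fibrillar collagen, which makes them the main source of scar matrix in the fibrotic liver.

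The livers came from female C57BL/6J mice that were 6 weeks old on arrival, had 2 weeks to acclimate and ate the control diet for 3 days before the start. For 10 days they were then fed either that control diet or a matched diet with BIBB-515 at 55 mg/kg, an inhibitor of lanosterol synthase in cholesterol synthesis. Libraries of 6 control mice (replicate numbers 1 to 6) and of 6 BIBB-515 mice (numbers 6 to 11) were analysed, from 11 mice per group in the study. The comparison asks how the stellate cell and matrix genes of the liver differ when this enzyme is inhibited.

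Reads counted on genes ranged from 22764819 to 27914647 per control mouse, with a median of 25188376, and from 24223939 to 31058370 per BIBB-515 mouse, with a median of 27056289 (two-sided exact permutation test, p = 0.123). Levels are given as CPM after TMM scaling. The control libraries were less alike than the BIBB-515 libraries. The chi-square per degree of freedom between libraries of a group had a median of 58.6 over 15 control pairs and 22.6 over 15 BIBB-515 pairs. Control mouse 3 stood farthest from its group, with a median of 112 over its 5 pairs, so the list medians given below, and members for which it was the highest mouse and that were tested, are given with and without it.

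The tissue carried the hepatocyte markers, with all 8 of those in the tables above the filter and Alb the most abundant at 120100 ± 6000 CPM in controls (SD, n = 6). Their summed level was 145000 to 165000 CPM in control mice and 113000 to 127000 CPM in BIBB-515 mice, so the groups did not overlap, and most of that sum is Alb. The median log2 fold change of the 8 genes was -0.15, and -0.18 without control mouse 3, and 6 of them were not called. Alb fell by 0.40 and Ttr fell by 0.49 on the log2 scale (edgeR, FDR = 0.0129 and 0.00391), and Alb was not called without a filter on low counts (FDR = 0.0591). The 20 most highly counted genes took 27.7% to 29.8% of the counts in control mice and 23.6% to 25.2% in BIBB-515 mice. These shifts run alongside every level below, and their part in the results was not tested.

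Lrat and Dcn fell in BIBB-515 mice, and the 6 other tested members did not pass the test. A call here is an FDR under 0.05 from edgeR over all tested genes. Thus 2 of the 8 tested members were called lower, where 6.48% of all tested genes were, and 0 were called higher, where 7.18% of all tested genes were. At an unadjusted p under 0.05 the same 2 members were lower and 0 higher, where 15.5% of all tested genes were lower and 14.3% higher, and DESeq2 and limma-voom likewise called 2 lower and 0 higher. The median log2 fold change of the 8 tested members was -0.15, and -0.11 without control mouse 3, against -0.01 over all 12481 genes. In none of the 8 did the CPM of the groups separate without overlap, which 7.07% of all tested genes showed.

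**Figure D1:**
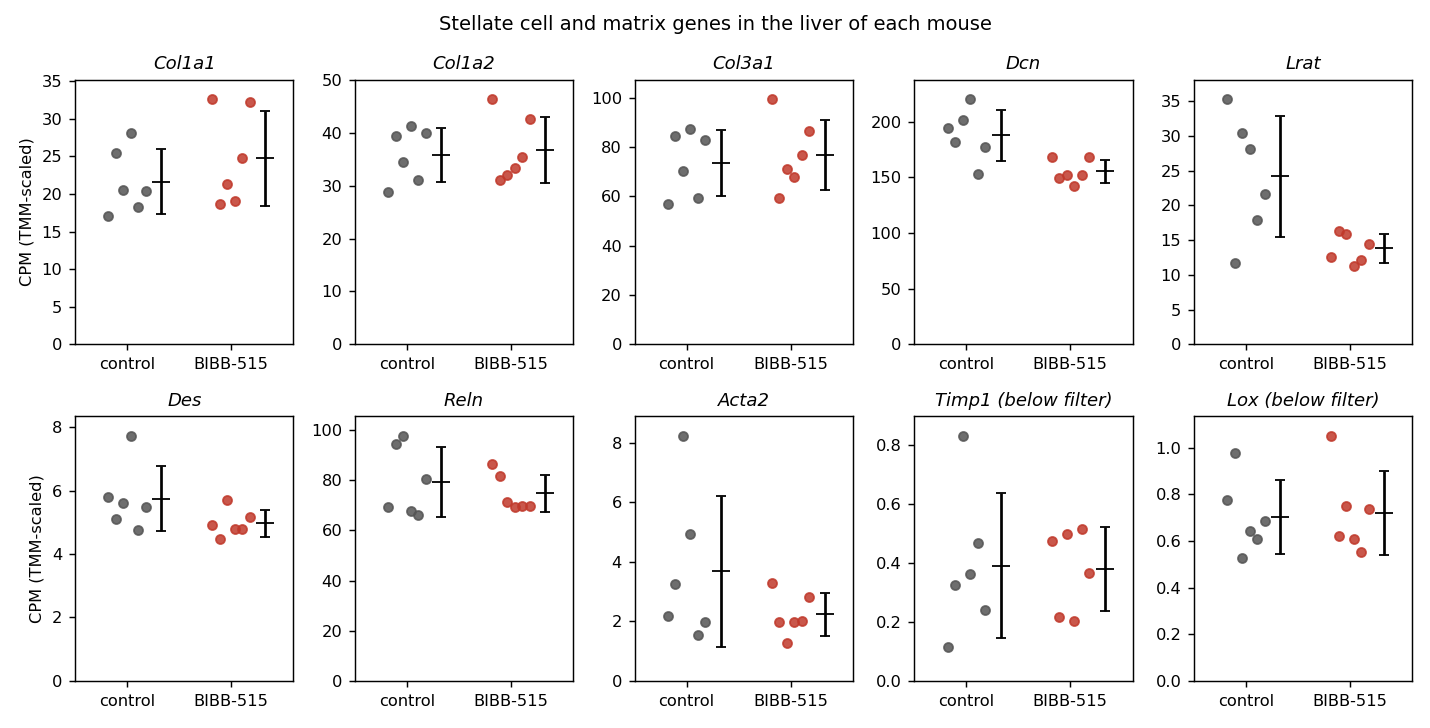
CPM of the 10 stellate cell and matrix genes in each of 6 control mice (grey) and 6 BIBB-515 mice (red), in order of replicate number, with the mean and SD of each group beside the points. Lrat spans 11.7 to 35.3 CPM in control mice and 11.3 to 16.3 CPM in BIBB-515 mice, while the ranges of the groups overlap widely in the 3 collagen genes.

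On the scale of RPKM, CPM per kilobase of exon, the levels in control mice spanned a wide range. Dcn was the highest at 90.2 ± 10.9 RPKM (SD, n = 6), followed by Col3a1 at 13.2 ± 2.39 RPKM. Col1a2 at 6.98 ± 0.999 RPKM and Reln at 6.77 ± 1.20 RPKM lay within each other's spread. So did Col1a1 at 4.60 ± 0.914 RPKM and Lrat at 4.53 ± 1.63 RPKM. Des stood at 1.88 ± 0.338 RPKM and Acta2 at 1.43 ± 0.987 RPKM, which overlap as well. Timp1 at 0.439 ± 0.276 RPKM and Lox at 0.142 ± 0.0320 RPKM closed the order. Among genes tied to stellate cell activation, Acta2, Timp1 and Lox thus had the lowest levels, while the fibrillar collagens reached or passed the level of Lrat. In BIBB-515 mice Dcn and Col3a1 again led at 74.6 ± 5.14 and 13.8 ± 2.57 RPKM, and Lrat stood at 2.58 ± 0.384 RPKM, below Col1a1 at 5.27 ± 1.35 RPKM.

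Lrat, lecithin retinol acyltransferase, had the largest point estimate of the tested members, though the interval of Acta2 includes it and Acta2 had the larger one without control mouse 1 or 6 or BIBB-515 mouse 6. Its level in control mice had a lowest value of 11.7, a median of 24.9 and a highest value of 35.3 CPM. In BIBB-515 mice the lowest was 11.3, the median 13.5 and the highest 16.3 CPM. In all, 5 control mice lay above every BIBB-515 mouse, and the groups overlapped through control mouse 2 alone, the lowest control. The mean was 24.2 ± 8.72 CPM in control mice and 13.8 ± 2.05 CPM in BIBB-515 mice (SD, n = 6 each). The log2 fold change was -0.81 (SE 0.21, 95% interval -1.26 to -0.36; edgeR, FDR = 0.0202), and every BIBB-515 mouse was under the mean of the controls. The two-sided exact permutation test over mice gave p = 0.0216, where 0.00216 is the smallest p that 6 mice against 6 allow. Without control mouse 3 the log2 fold change was -0.73 (edgeR, FDR = 0.0382). In bulk liver, fewer stellate cells and less Lrat RNA per stellate cell cannot be told apart.

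The spread of Lrat between mice also differed in size, with a coefficient of variation of 36.03% in control mice and 14.9% in BIBB-515 mice. This was not particular to Lrat. The coefficient was also lower with BIBB-515 in Dcn (12.08% and 6.898%), Des (18.04% and 8.6%), Reln (17.65% and 9.909%) and Acta2 (68.84% and 31.93%). In Col1a1, Col1a2 and Col3a1 it was higher with BIBB-515, and no test of spread was made. Lrat lies on chr3:82892582-82903974 of the minus strand in mm10, and the tables divide it into 2 exon intervals. Exon 1, of 802 bases, had 3.02 ± 1.20 CPM in control mice and 1.99 ± 0.483 CPM in BIBB-515 mice (SD, n = 6). Exon 2, of 4547 bases, had 21.7 ± 7.71 and 12.1 ± 1.69 CPM. The lower mean was present in both exons, and exon 2 held 87.8% ± 1.31 of the summed exon counts of Lrat in control mice and 86.1% ± 1.84 in BIBB-515 mice.

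Reln encodes reelin, a secreted glycoprotein that stellate cells make in the liver. Control mice had 66.0 CPM at the lowest, 74.8 at the median and 97.6 at the highest, and BIBB-515 mice 69.3, 70.6 and 86.6 CPM. The highest mice were control mice 3 and 2, and all BIBB-515 mice lay within the range of the controls. Reln had a log2 fold change of -0.08 (SE 0.11, 95% interval -0.31 to 0.14; edgeR, FDR = 0.643), a difference within the spread between mice, and -0.01 without control mouse 3. The interval of Reln does not reach the estimate for Lrat. Within each mouse, Lrat stood at 0.271 to 1.12 times Reln per length in the control group and at 0.317 to 0.486 times in the BIBB-515 group. The ratio was chosen after the values were seen and carries no test. The last exon interval of Reln had 34.8 ± 4.05 CPM in control mice and 28.8 ± 1.44 CPM in BIBB-515 mice (SD, n = 6), or 34.0% ± 7.99 and 28.5% ± 3.52 of its summed exon counts, while the mean was higher with BIBB-515 in 41 of its 64 intervals.

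Des encodes desmin, an intermediate filament of muscle and of rodent stellate cells. In control mice Des ran from 4.77 through a median of 5.55 to 7.72 CPM, and in BIBB-515 mice from 4.47 through 4.85 to 5.71 CPM. Control mice 4 and 1 lay above all BIBB-515 mice, and the other 4 controls overlapped them. For Des the log2 fold change was -0.21 (SE 0.11, 95% interval -0.45 to 0.03; edgeR, FDR = 0.237), and -0.10 without control mouse 4 (edgeR, FDR = 0.51). At 102 to 192 counts per mouse, Des is measured less finely than the collagens.

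Dcn encodes decorin, a small proteoglycan that binds collagen fibrils and the growth factor TGF-beta. Control mice had 153 CPM at the lowest, 187.9 at the median and 219.9 at the highest, and BIBB-515 mice 142, 151.8 and 168.5 CPM. All control mice except mouse 5 lay above all BIBB-515 mice, and 4 BIBB-515 mice lay below all controls. The means were 187.9 ± 22.7 and 155.4 ± 10.7 CPM (SD, n = 6 each), and no BIBB-515 mouse reached the mean of the controls. Its log2 fold change was -0.27 (SE 0.08, 95% interval -0.45 to -0.10; edgeR, FDR = 0.0398), with p = 0.0108 in the two-sided exact permutation test. Dcn sits close to the threshold. The call did not hold without control mouse 1, 3, 4 or 6, or without BIBB-515 mouse 7, 8, 9 or 10 (edgeR, FDR between 0.0554 and 0.0906), nor with upper-quartile normalization (FDR = 0.0518) or without a filter on low counts (FDR = 0.062), while the log2 fold change of Dcn stayed between -0.32 and -0.21 over all fits.

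All 9 exon intervals of Dcn, on chr10:97479500-97518162 of the plus strand, had a lower mean in BIBB-515 mice. The last, of 702 bases, went from 97.0 ± 11.2 CPM in control mice to 79.0 ± 6.31 CPM in BIBB-515 mice (SD, n = 6). The first, of 290 bases, had 10.1 ± 2.28 and 9.19 ± 0.938 CPM. The last interval held 37.8% ± 2.52 of the summed exon counts of Dcn in control mice and 37.1% ± 2.11 in BIBB-515 mice, so the lower level was spread along the gene.

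The genes of fibrillar collagen did not follow Lrat and Dcn. Col1a1 and Col1a2 encode the chains of type I collagen, and Col3a1 the chain of type III collagen. Col1a1 had 17.1 CPM at the lowest, 20.4 at the median and 28.1 at the highest in control mice, and 18.6, 23.0 and 32.6 CPM in BIBB-515 mice. BIBB-515 mice 6 and 11 lay above all controls, and the rest mixed with them. Col1a1 had a log2 fold change of 0.19 (SE 0.16, 95% interval -0.15 to 0.54; edgeR, FDR = 0.453).

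Col1a2 ran from 28.9 through a median of 37.0 to 41.4 CPM in control mice and from 31.1 through 34.3 to 46.4 CPM in BIBB-515 mice. Col3a1 ran from 57.1 through 76.7 to 87.4 CPM in control mice and from 59.5 through 74.0 to 99.4 CPM in BIBB-515 mice. In both genes BIBB-515 mouse 6 was the highest of the 12, and the groups covered nearly the same range. In Col1a2 the log2 fold change was 0.04 (SE 0.12, 95% interval -0.21 to 0.28; edgeR, FDR = 0.869). In Col3a1 it was 0.06 (SE 0.13, 95% interval -0.22 to 0.35; edgeR, FDR = 0.793). Without BIBB-515 mouse 6 these 2 estimates changed sign, to -0.04 and -0.02, as both did without control mouse 1 and Col1a2 without BIBB-515 mouse 11. As ratios of means, the intervals allow from 0.864 to 1.22 times the control level for Col1a2 and from 0.857 to 1.27 times for Col3a1.

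Within a mouse the collagen messages kept a narrow ratio per length. Col1a1 stood at 0.658 ± 0.0641 times Col1a2 in control mice and at 0.729 ± 0.0745 times in BIBB-515 mice (SD, n = 6). Col3a1 stood at 2.89 ± 0.284 times Col1a1 in control mice and at 2.66 ± 0.244 times in BIBB-515 mice. Both ranges overlapped between the groups, and no test was made of ratios picked after the values were seen.

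The collagen genes are built of many short exons that encode Gly-X-Y repeats of the triple helix. The tables hold 51 exon intervals for Col1a1, 52 for Col1a2 and 51 for Col3a1. Of these, 21, 24 and 24 are 54 bases long. The mean was higher in BIBB-515 mice in 41 of 51 intervals of Col1a1, 40 of 52 of Col1a2 and 42 of 51 of Col3a1. Intervals of a gene share their mice, so these counts are a description of where the reads lie and not of separate results. The last interval, which holds many of the counts, went the other way in Col1a2, from 10.1 ± 2.11 to 9.66 ± 2.47 CPM, and in Col3a1, from 19.3 ± 6.26 to 17.4 ± 3.61 CPM (SD, n = 6). Its share of the summed exon counts was 9.69% ± 1.27 and 9.13% ± 1.34 in Col1a1, 15.7% ± 1.92 and 14.2% ± 2.72 in Col1a2, and 14.5% ± 3.14 and 12.4% ± 1.23 in Col3a1. Over the members, the mean share of the last interval was lower with BIBB-515 in 7 of the 8 tested, all but Des with 38.2% ± 5.37 and 42.0% ± 7.35. The differences were mostly within the spread between mice, and the part of coverage along the genes in the results was not tested.

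Acta2 encodes alpha smooth muscle actin, the classical mark of the activated stellate cell that is also made by the muscle of vessels. It was low throughout, at 33 to 188 counts per mouse. Control mice had 1.54 CPM at the lowest, 2.71 at the median and 8.23 at the highest, and BIBB-515 mice 1.28, 2.01 and 3.30 CPM. Control mouse 3 held the highest value and control mouse 4 the next at 4.95 CPM, and the other controls overlapped the BIBB-515 mice. The log2 fold change was -0.72 (SE 0.36, 95% interval -1.50 to 0.06; edgeR, FDR = 0.203), with p = 0.251 in the two-sided exact permutation test. Without control mouse 3 the log2 fold change of Acta2 was -0.31 (edgeR, FDR = 0.52). With 1 surrogate variable in the fit it was -0.55 and passed the threshold (edgeR, FDR = 0.00579), the only one of 7 other settings in which it did. All 9 exon intervals of Acta2 had the lower mean in BIBB-515 mice.

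Timp1 encodes an inhibitor of matrix metalloproteinases, and Lox an oxidase that cross-links collagen and elastin. Timp1 had 3 to 19 counts per mouse and 120.0 counts over all mice, and Lox 12 to 33 counts per mouse and 227 over all mice. The mean of Timp1 was 0.391 ± 0.246 CPM in control mice and 0.380 ± 0.142 CPM in BIBB-515 mice (SD, n = 6; two-sided exact permutation test, p = 0.952). Control mouse 3 was the highest for Timp1, at 0.831 CPM, as it was for Acta2 and Reln. The mean of Lox was 0.702 ± 0.158 CPM in control mice and 0.719 ± 0.178 CPM in BIBB-515 mice (SD, n = 6; two-sided exact permutation test, p = 0.868). Both failed the filter of 1 CPM in 2 mice.

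Members were compared across the 12 mice after each group's mean log2 CPM was removed, as a description over 28 pairs of tested members. The 3 collagen genes formed the tightest group, with Pearson r = 0.971 and Spearman rho = 0.951 for Col1a2 and Col3a1. Col1a1 had r = 0.918 and rho = 0.902 with Col1a2. Without the 2 mice farthest from the median of the first gene the values were r = 0.967 and r = 0.868. Control mice 2, 4 and 6 and BIBB-515 mice 6 and 11 were above their group mean in both Col1a2 and Col3a1. Lrat had low negative values with the collagens, at r = -0.238 with Col1a1, -0.309 with Col1a2 and -0.32 with Col3a1. Dcn lay nearer to Acta2 (r = 0.743, rho = 0.769) and Des (r = 0.737, rho = 0.769) than to Lrat (r = 0.478, rho = 0.531). With the collagens Dcn had r = 0.645 (Col1a1), 0.554 (Col3a1) and 0.533 (Col1a2). In the same order, the values were 0.945, 0.857 and 0.899 within the BIBB-515 group and 0.529, 0.421 and 0.356 within the control group. For Dcn and Des the value was r = 0.313 without the 2 mice farthest from the median of Dcn, so it rests on those mice.

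Among all 12481 tested genes, the 3 with the highest r were listed for each tested member. For Lrat they were Cyp26b1, which encodes a hydroxylase that clears retinoic acid (r = 0.952, rho = 0.909), Cdc42ep3, an effector of the GTPase Cdc42 (r = 0.932, rho = 0.909), and Npr3, the clearance receptor of natriuretic peptides (r = 0.924, rho = 0.909). Npr3 fell with BIBB-515, from 2.82 ± 0.826 CPM in control mice to 1.69 ± 0.251 CPM (SD, n = 6; log2 fold change -0.73, edgeR, FDR = 0.0192), with control mouse 2 again the lowest control. The call of Npr3 held in all 7 other settings and without each mouse (FDR at most 0.0458). Cyp26b1 ran from 0.832 CPM in control mouse 2 to 12.3 CPM in control mouse 1, and from 1.46 to 5.27 CPM in BIBB-515 mice. Control mice 2 and 1 are also the lowest and the highest control for Lrat. The log2 fold change of Cyp26b1 was -0.99 (SE 0.47; edgeR, FDR = 0.173), and that of Cdc42ep3 was -0.11 (edgeR, FDR = 0.75).

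For Col1a1 the nearest genes were Nup98 (r = 0.929), Col1a2 and Myadm (r = 0.915). For Col1a2 they were Col3a1, Col1a1 and the proteoglycan gene Bgn (r = 0.917), and for Col3a1 they were Col1a2, Bgn (r = 0.926) and Ccdc120 (r = 0.916). Bgn, which encodes biglycan, the close relative of decorin, varied more closely with Col1a2 and Col3a1 than Dcn did. Bgn had a log2 fold change of -0.10 (95% interval -0.28 to 0.08; edgeR, FDR = 0.446), an interval that includes the estimate for Dcn. For Dcn itself the nearest were Ms4a4d (r = 0.971), Vps29 (r = 0.927) and Tceal8 (r = 0.922). For Acta2 they were Lactb2 (r = 0.974), Rdh11 (r = 0.967) and Tagln (r = 0.956), the last a smooth muscle gene with its highest value in control mouse 3, at 25.6 CPM. For Des they were 6820431F20Rik (r = 0.898), Plagl1 (r = 0.89) and Ifi27l2b (r = 0.878). For Reln they were Ugt1a5 (r = 0.931), Sspn (r = 0.918) and Peak1 (r = 0.916). The counts of Ugt1a5 are uncertain, since it shares exons with other Ugt1a genes. Except for the members, Bgn, Cyp26b1 and Tagln, none of these genes is in a list used here.

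**Figure D2:**
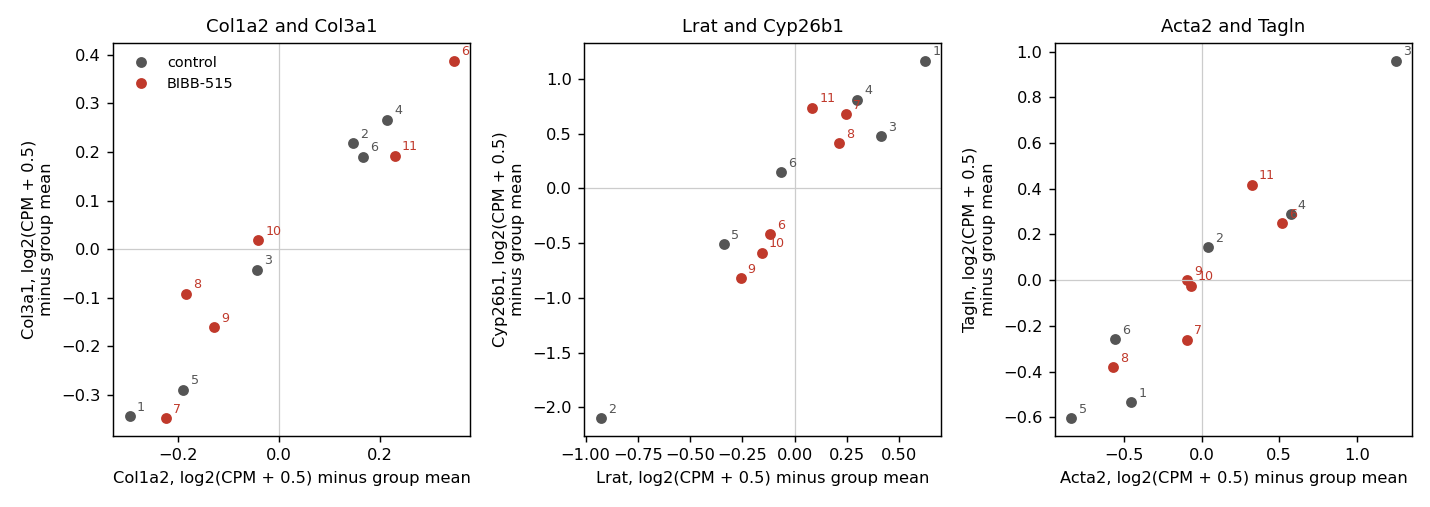
Each point is a mouse, numbered by replicate, with control mice in grey and BIBB-515 mice in red, and each axis gives log2(CPM + 0.5) minus the mean of the mouse's group. Col1a2 and Col3a1 rise together over both groups, the relation of Lrat and Cyp26b1 spans from control mouse 2 to control mouse 1, and control mouse 3 stands apart in Acta2 and Tagln.

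Other genes of the matrix were followed by named lists. Of 17 further collagen genes tested, 1 rose and 1 fell, with a median log2 fold change of -0.02, which changed sign to 0.07 without control mouse 3. Col5a3, a chain of type V collagen, rose from 25.9 ± 8.16 to 49.6 ± 6.68 CPM (SD, n = 6), with all BIBB-515 mice above all controls (log2 fold change 0.94, SE 0.18; edgeR, FDR = 0.00322). Col15a1, a chain associated with basement membranes, fell from 14.7 ± 3.41 to 10.2 ± 1.78 CPM (log2 fold change -0.52, SE 0.15; edgeR, FDR = 0.0345). The call of Col15a1 did not hold without control mouse 3, 4 or 6 or BIBB-515 mouse 7, 9, 10 or 11 (edgeR, FDR between 0.0546 and 0.0746).

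Of 25 glycoprotein and proteoglycan genes tested, 1 rose and 2 fell, with a median log2 fold change of -0.10, and -0.04 without control mouse 3. At an unadjusted p under 0.05, 1 was higher and 5 lower, where 14.3% and 15.5% of all tested genes were, while DESeq2 called 1 higher and 4 lower and limma-voom 1 higher and 2 lower. The sum of the list, led by Fn1, was 2420.0 to 2980.0 CPM in control mice and 2030.0 to 2360.0 CPM in BIBB-515 mice, with no overlap, and most of that sum is Fn1. Fn1, fibronectin, which hepatocytes also secrete in quantity, fell from 1998 ± 239 to 1527 ± 121 CPM (SD, n = 6; log2 fold change -0.39, edgeR, FDR = 0.0133). Lum, which encodes lumican, a small leucine-rich proteoglycan like decorin, fell from 14.9 ± 1.67 to 11.6 ± 1.07 CPM with no overlap between the groups (log2 fold change -0.37, edgeR, FDR = 0.0102). Eln, elastin, rose from 5.68 ± 0.960 to 7.96 ± 0.831 CPM, also with no overlap (log2 fold change 0.49, edgeR, FDR = 0.0128).

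Among 16 tested genes of collagen processing, 1 rose and 1 fell, with a median of -0.08, and -0.02 without control mouse 3. P4hb, a subunit of prolyl hydroxylase that also serves as protein disulfide isomerase, rose by 0.28 on the log2 scale (edgeR, FDR = 0.014). Bmp1, which cleaves the end of procollagen, fell by 0.34 (edgeR, FDR = 0.0144). Among genes of matrix turnover, Mmp14, a membrane-bound collagenase, fell from 60.4 ± 10.5 to 45.2 ± 2.59 CPM (SD, n = 6; log2 fold change -0.42, edgeR, FDR = 0.0153). The lists of collagens, of glycoproteins and proteoglycans and of collagen processing thus each held called genes in both directions.

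Of 20 tested genes of the TGF-beta and PDGF pathways, 1 rose and 1 fell, with a median of -0.04, and -0.03 without control mouse 3. Tgfbr2, a receptor of TGF-beta, rose from 31.6 ± 7.84 to 48.4 ± 2.32 CPM (SD, n = 6; log2 fold change 0.62, edgeR, FDR = 0.00629). Skil, a repressor of SMAD proteins that is itself a target of TGF-beta, fell from 20.0 ± 2.04 to 13.4 ± 1.37 CPM (log2 fold change -0.58, edgeR, FDR = 0.00054). In both genes the groups did not overlap. These genes are expressed in hepatocytes and other liver cells as well, and bulk counts do not say in which cells they moved.

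Of 22 other genes of resting stellate cells, 20 were tested, 1 fell and 0 rose, at a median of -0.14. Steap4, a metalloreductase that hepatocytes also express, fell from 99.7 ± 7.95 to 73.3 ± 8.42 CPM with no overlap between the groups (SD, n = 6; log2 fold change -0.44, edgeR, FDR = 0.00263). At an unadjusted p under 0.05, 6 were lower and 0 higher, or 6 of 20 against 29.7% of all tested genes in either direction and 15.5% lower, while DESeq2 called 3 lower and limma-voom 1. All 20 had a negative log2 fold change, from -0.50 in Hhip to -0.01 in Lhx2, where 52.9% of all tested genes had a negative one. The genes share the same 12 mice, and the list was chosen with earlier results of these data known. The count is thus a description and not a set of separate results. Negative values also prevailed in other lists, with 8 of 8 hepatocyte genes, 8 of 10 contractile and activation genes, 9 of 12 endothelial genes and 18 of 25 glycoprotein and proteoglycan genes. The number was 20 under upper-quartile normalization, DESeq2 and limma-voom too, and 19, with a median of -0.10, without control mouse 3. The summed level of the list was 549 to 619 CPM in control mice and 485 to 540.0 CPM in BIBB-515 mice, with no overlap. Ecm1 was its most abundant gene and Steap4 the next, and most of the difference in the sum lay in these genes. Ecm1 had 211.9 ± 12.6 CPM in control mice and 186.7 ± 10.7 CPM in BIBB-515 mice (edgeR, FDR = 0.0616).

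Of 5 tested genes that bind, break down or respond to retinoids, 0 were called by edgeR, at a median of -0.07 (-0.11 without control mouse 3), and Crabp1 was at 0 in every mouse. At an unadjusted p under 0.05, 1 was higher, and DESeq2 and limma-voom each called 1 higher. That gene was Dhrs3, a retinaldehyde reductase induced by retinoic acid, at 132.8 ± 27.8 CPM in control mice and 168.9 ± 14.1 CPM in BIBB-515 mice (SD, n = 6; log2 fold change 0.35, edgeR, FDR = 0.0601). The gene with the next lowest p was Cyp26b1, given above. Lrat was therefore the only gene of vitamin A storage or breakdown named here that edgeR called.

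Of 10 other genes of smooth muscle and activated stellate cells tested, 2 rose and 1 fell, at a median of -0.20, and -0.13 without control mouse 3. At an unadjusted p under 0.05, 2 were higher and 4 lower, the latter Myl9, Myh11, Mylk and Smtn, where 14.3% and 15.5% of all tested genes were, while DESeq2 called 2 higher and 1 lower and limma-voom 2 higher and 0 lower. Myl9, a myosin light chain of smooth muscle, fell from 4.79 ± 1.93 to 2.90 ± 0.504 CPM (SD, n = 6; log2 fold change -0.73, edgeR, FDR = 0.0439). That call did not hold with limma-voom, without a filter on low counts, or without control mouse 2, 3 or 4 or BIBB-515 mouse 6, 7, 8, 9 or 10 (FDR between 0.0703 and 0.0923 without a mouse). Lgals1, the lectin galectin 1 rather than a contractile protein, rose from 13.7 ± 2.52 to 24.9 ± 3.97 CPM with no overlap between the groups (log2 fold change 0.86, edgeR, FDR = 0.000615). Tpm1, a tropomyosin, rose by 0.35 on the log2 scale (edgeR, FDR = 0.0384). The call of Tpm1 did not hold without control mouse 1, 2, 5 or 6 or BIBB-515 mouse 6, 8, 9, 10 or 11 (edgeR, FDR between 0.0508 and 0.079). Tagln stood at 13.9 ± 6.45 CPM in control mice and 11.1 ± 2.42 CPM in BIBB-515 mice (edgeR, FDR = 0.386). Mylk was the most abundant gene of the list, and its summed level overlapped, at 201 to 279 and 223 to 251 CPM.

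**Figure D3:**
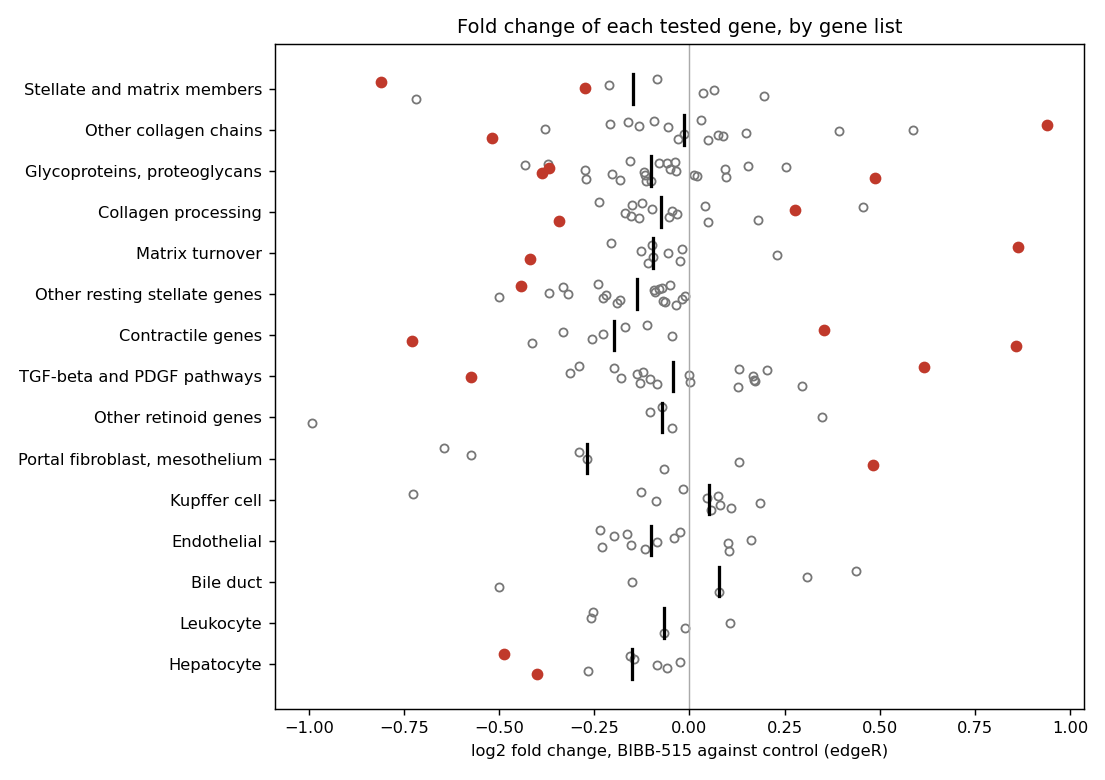
Log2 fold change of each tested gene in BIBB-515 against control mice, by list, with genes at an FDR under 0.05 from edgeR filled in red and the median of each list as a vertical bar. The 20 other genes of resting stellate cells all lie left of 0 with 1 called, while the other collagen chains spread around a median of -0.02.

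Markers of the other cells of the liver gave these values beside the members. None of the 10 tested Kupffer cell genes was called by edgeR, at a median of 0.05 (0.02 without control mouse 3), and none had an unadjusted p under 0.05 or was called by DESeq2 or limma-voom. Their summed level was 501 to 814 CPM in control mice and 514 to 846 CPM in BIBB-515 mice, led by Clec4f. The lowest p in that list were those of Marco, at 21.6 ± 14.7 and 12.9 ± 13.2 CPM, and Cd5l, at 131.8 ± 40.6 and 149.7 ± 44.6 CPM (SD, n = 6).

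Of 12 endothelial genes tested, edgeR, DESeq2 and limma-voom called 0, and 1 was lower at an unadjusted p under 0.05, at a list median of -0.10, and -0.03 without control mouse 3. That gene was Fcgr2b, at 27.6 ± 3.05 CPM in control mice and 23.5 ± 3.02 CPM in BIBB-515 mice (SD, n = 6; edgeR, FDR = 0.114), and Vwf followed at 7.88 ± 1.47 and 6.70 ± 0.757 CPM. The endothelial sum, led by Stab2 in control mice and Plvap in BIBB-515 mice, was 365 to 474 and 332 to 433 CPM. The highest was that of control mouse 3, which was also the highest for Reln and Acta2.

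Of 7 portal fibroblast and mesothelial genes tested, 1 rose and 0 fell, at a median of -0.27, and -0.15 without control mouse 3. The unadjusted p, DESeq2 and limma-voom also gave 1 higher and 0 lower. Entpd2, an ectonucleotidase of portal fibroblasts, rose from 5.05 ± 0.530 to 7.07 ± 0.901 CPM with no overlap between the groups (SD, n = 6; log2 fold change 0.48, edgeR, FDR = 0.00758). The sum of the list, led by Gas6, was 64.6 to 169 CPM in control mice and 96.4 to 132 CPM in BIBB-515 mice. The 5 bile duct genes tested had a median of 0.08 (0.16 without control mouse 3) and a sum led by Spp1 of 62.8 to 116 and 92.1 to 155 CPM. Of these, edgeR and limma-voom called 0, and Spp1 was higher at an unadjusted p under 0.05 and with DESeq2, at 82.6 ± 17.0 CPM in control mice and 111.8 ± 22.4 CPM in BIBB-515 mice (edgeR, FDR = 0.0664). Next was Krt19 at 2.28 ± 0.961 and 1.605 ± 0.207 CPM.

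The 5 leukocyte genes tested had a median of -0.07 (-0.13 without control mouse 3), with 0 called by edgeR, DESeq2 or limma-voom and 0 at an unadjusted p under 0.05. Ptprc led that list at 13.5 ± 1.70 and 11.3 ± 3.12 CPM, and its sum was 16.8 to 23.1 CPM in control mice and 14.6 to 23.2 CPM in BIBB-515 mice. Nkg7 had 1.00 ± 0.207 and 0.836 ± 0.0829 CPM (SD, n = 6). Of the fat cell genes Lep was at 0 in every mouse, and only Fabp4 passed the filter, at 8.70 ± 1.82 and 9.25 ± 1.61 CPM, with a sum of 6.82 to 11.3 and 6.96 to 11.6 CPM. No gene of striated muscle passed the filter, Myh2 and Myh6 were at 0 in every mouse, and the sum, led by Tnnt2 in control mice and Actc1 in BIBB-515 mice, was 0.253 to 0.929 and 0.405 to 0.888 CPM. Actc1 had 59 counts over all mice, at 0.0543 ± 0.0790 CPM in control mice and 0.295 ± 0.123 CPM in BIBB-515 mice. Striated muscle, which also makes desmin, thus left nearly no counts in these libraries. The part of the other marker lists in the values of the members was not tested.

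Promoters of 250 bases before to 50 bases after the RefSeq start (GRCm38.p6) were searched for 7 members, Col1a2, Col3a1, Lrat, Des, Reln, Acta2 and Timp1. The motifs were the TATA box TATAAA, the CCAAT box CCAAT, the GC box GGGCGG, the AP-1 site TGANTCA, the SMAD element CAGACA and the CArG box, on both strands. Of 32851 promoters of the same length, 13.6% hold the TATA box, 37.4% the CCAAT box, 35.7% the GC box, 7.81% the AP-1 site, 21.0% the SMAD element and 1.63% the CArG box. The SMAD element was present in Col1a2, Col3a1, Des and Acta2, the GC box in Col1a2, Lrat, Des, Reln and Timp1, and the CCAAT box in Col1a2, Lrat and Timp1. The AP-1 site was in none of the 7 windows. The strict form of the CArG box was in none either, but the window of Acta2 holds 2 stretches that differ from it by 1 letter, that of Col1a2 2 and that of Lrat 1, and 19.9% of all promoters hold at least 1. A match describes the letters only.

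The promoters of Col1a2 and Col3a1 are shown because their mRNA varied together most closely of the members, and that of Lrat because it had the larger fold change of the called members. Col1a2 is at chr6:4505368-4505667 on the plus strand, Col3a1 at chr1:45311288-45311587 on the plus strand and Lrat at chr3:82903925-82904224 on the minus strand, each printed 5′ to 3′ with matches of the motifs in capitals.
Col1a2: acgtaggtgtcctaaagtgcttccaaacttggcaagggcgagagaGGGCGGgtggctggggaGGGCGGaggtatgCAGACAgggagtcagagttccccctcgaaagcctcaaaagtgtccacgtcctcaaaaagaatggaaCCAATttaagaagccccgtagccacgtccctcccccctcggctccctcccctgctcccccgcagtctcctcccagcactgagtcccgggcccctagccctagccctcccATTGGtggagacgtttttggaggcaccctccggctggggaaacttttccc
Col3a1: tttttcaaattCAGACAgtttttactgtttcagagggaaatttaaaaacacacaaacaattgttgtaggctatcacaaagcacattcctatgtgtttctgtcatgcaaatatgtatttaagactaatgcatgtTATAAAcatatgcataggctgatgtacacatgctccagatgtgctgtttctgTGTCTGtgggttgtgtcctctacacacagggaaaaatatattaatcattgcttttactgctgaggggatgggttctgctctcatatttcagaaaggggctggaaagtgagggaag
Lrat: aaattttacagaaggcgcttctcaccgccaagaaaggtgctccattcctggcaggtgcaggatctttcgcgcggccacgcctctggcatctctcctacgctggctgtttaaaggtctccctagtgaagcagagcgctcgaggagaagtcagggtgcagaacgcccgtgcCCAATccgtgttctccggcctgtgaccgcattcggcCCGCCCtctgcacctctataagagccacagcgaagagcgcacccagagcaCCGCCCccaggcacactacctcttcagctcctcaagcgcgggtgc
The promoter of Col1a2 holds the GC box at 205 and 188 bases before the start, the SMAD element at 175 bases before it, and the CCAAT box at 109 bases before it and, on the other strand, at the start itself. That of Col3a1 holds the TATA box at 117 bases before the start and the SMAD element at 239 and, on the other strand, at 65 bases before it. The pair that varied together thus differed in base composition, with 61.0% G or C in Col1a2 and 37.7% in Col3a1 against a median of 52.7% over all promoters. The promoter of Lrat, with 60.7% G or C, holds the CCAAT box at 81 bases before the start and the GC box on the other strand at 45 bases before and at 6 bases after it. The start of Col1a2 in the count tables lies 79 bases after the RefSeq start used here, and those of Col3a1 and Lrat coincide with it.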

How the data were processed

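RNA of 12 mouse livers was sequenced. The authors deposited whole-number read counts per gene, made, per the file headers, with featureCounts 1.6.3 on a UCSC annotation of mm10, without a strand option and without reads on several places or genes; the submitters' processing notes name STAR 2.5.3a. Deposited counts per exon were used for the members, and counts of primary alignments as an alternative. The tables of primary alignments held 100.0% to 100.2% of the members' counts.

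Genes with at least 1 CPM in 2 of 12 mice were kept. After TMM scaling, edgeR 4.0.16 in R 4.3.3 gave quasi-likelihood F tests, with Benjamini-Hochberg FDR over 12481 genes and diet as the only term. Single members were compared on log2(CPM + 0.5) by two-sided exact permutation over mice. In 1 set of simulated counts 200 of 12368 genes were changed, with the same dispersion in both groups. There edgeR recovered 67.2% of changes of 0.5 and 95.5% of changes of 1 on the log2 scale. Of its calls 5.43% were false, against 4.40% for limma-voom and 16.4% for DESeq2. In the data 1705 genes were called and the control libraries were less alike, so these rates need not hold for the comparison itself. Every pair of libraries of a group differed by more than sampling noise. The common biological coefficient of variation was 0.143.

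Named genes were all members, at most 4 called genes of each list or else the 2 with the lowest p, the 3 genes most correlated with each tested member and the most abundant gene of marker lists. Members and lists were chosen with earlier results of these data known. Alternatives were DESeq2 1.42.0, limma-voom (3.58.1), upper-quartile normalization, 1 surrogate variable (sva 3.50.0), other filters, primary alignments and each mouse left out.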

Additional observations from a re-analysis of the deposited data

Results flagged for a closer look

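In the control group the Des level of mouse 4, at 7.72 CPM, stood apart from the next mouse, at 5.81 CPM, by a gap that took 0.648 of the range of the group. It was the only gap above the limit of Dixon's test for 6 samples among 22 groups of values examined, which were the 10 members and the total counts in each diet, and chance alone gives such a gap in about 1 of 20 groups. The log2 fold change of Des was -0.21 with this mouse and -0.10 without it.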

How the results depend on the processing

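No paired analysis was possible because the groups share only replicate number 6. Of 152 member fold changes under alternatives, 141 kept direction and side of the threshold or were uncalled in both, 10 lost the call, all of Dcn, and 1 gained it, Acta2 with 1 surrogate variable. Lrat was called in all 7 other settings (FDR at most 0.0456) and without each mouse (log2 fold change -0.95 to -0.67, FDR at most 0.048). The number of members called lower was 1 with no filter on low counts and 1 with upper-quartile normalization, instead of 2, and 3 with 1 surrogate variable, with 1 to 2 without each mouse in turn; the number higher was 0 throughout. Over all tested genes the number called lower was 809, and without each mouse in turn 523 (without BIBB-515 mouse 10) to 897 (without control mouse 2). Among list genes the number called lower was 17 with 1 surrogate variable, against 10, and 14 of 18 called genes held in every alternative. The cause was not tested. Other pseudocounts (0.1 and 1) moved no permutation p across 0.05. Depth limits Timp1 and Lox.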
